A study of Mus musculus with 12 samples.

Results

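The genes described here store, carry and sense iron and break down heme, and they were followed in BV2, a long-established line of mouse microglia. They were picked by symbol, with earlier results of these data known: Fth1, Ftl1, Tfrc, Slc40a1, Slc11a1, Slc11a2, Lcn2, Hmox1, Ireb2 and Ncoa4. The deposited count table holds 24934 genes, and all 10 of these were in it and among the 13249 genes with enough reads to be tested. RNA was sequenced from 12 libraries, 4 in each of 3 groups. In the Acacetin group the cells were given the plant flavone acacetin at 10 µM. In the OGD group they were deprived of oxygen and glucose and then re-oxygenated, which models a stroke in culture. No treatment is labelled for the Control group. The label of the Acacetin group names only the compound, and the design text places it after deprivation and re-oxygenation, so the group was read as Acacetin after OGD. The labels state no duration. Nor is it stated whether libraries of the same group are separate cultures, so the p-values measure the spread between these libraries, which may be technical.

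Most iron enters cells as transferrin bound to the transferrin receptor, and is freed inside endosomes. Ferritin, a shell of heavy and light chains, holds the iron that is not in use, and ferroportin is the known route out of the cell. Iron regulatory proteins bind a short RNA hairpin, the iron-responsive element, when iron is scarce. A hairpin ahead of the coding region then blocks translation, as in ferritin and ferroportin mRNA. Hairpins behind the coding region of transferrin receptor mRNA protect it from decay instead. Macrophages and microglia also take iron from heme, through heme oxygenase, and withhold iron from microbes.

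The hairpins are shown because they are the part of these mRNAs that iron status acts on. Among the genes with sites printed below, their place also separates those regulated through translation from Tfrc, regulated through its mRNA level. Transcripts of GENCODE release M21, on build GRCm38, were searched on the transcript strand for a C, 5 bases, CAGTG, any base and 5 bases, with each set of 5 pairing with the other and G with T allowed. The submitters' processing notes name GRCm39, and no positions were converted. In each line the 30 bases run 5′ to 3′ and capitals mark the 6 bases of the loop. The ferritin and ferroportin sites lie in the 5′ UTR and the 4 transferrin receptor sites in the 3′ UTR.
Fth1: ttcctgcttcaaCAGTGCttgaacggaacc
Ftl1: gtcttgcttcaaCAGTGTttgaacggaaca
Slc40a1: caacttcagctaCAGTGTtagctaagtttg
Tfrc site 1: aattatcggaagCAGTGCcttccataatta
Tfrc site 2: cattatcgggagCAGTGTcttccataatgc
Tfrc site 3: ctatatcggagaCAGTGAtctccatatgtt
Tfrc site 4: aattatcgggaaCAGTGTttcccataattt

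The Fth1 site is at chr19:9982732-9982761 on the plus strand, and the Ftl1 site is at chr7:45459778-45459807 on the minus strand. The Slc40a1 site is at chr1:45925464-45925493 on the minus strand. The Tfrc sites are on the plus strand at chr16:32631219-32631248, chr16:32631598-32631627, chr16:32631663-32631692 and chr16:32631710-32631739. The 2 ferritin sites were identical at 26 of 30 bases, and Fth1 and Slc40a1 at 13 of 30. Among the transferrin receptor sites, identity ran from 18 bases between sites 2 and 3 to 25 between sites 1 and 2. Of 21877 protein-coding genes, 31 (0.142%) held such a match in a 5′ UTR and 129 (0.59%) in a 3′ UTR. Tfrc was the 1 gene (0.00457%) with at least 4 matches in its 3′ UTR. The transcripts of Slc11a1, Slc11a2, Lcn2, Hmox1, Ireb2 and Ncoa4 held no match to these letters. The search asked for a fixed pattern with full pairing, so an element of another form would be missed. Absence of a match thus does not show that a transcript lacks an iron-responsive element, and a gene with matches may hold further ones.

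Between OGD and Control, 3 of the 10 genes were called as changed. Slc11a1, an iron and manganese transporter of phagosomes, rose 2.28-fold, Lcn2, a secreted protein that binds iron-carrying siderophores, fell 3.65-fold, and Fth1, the ferritin heavy chain, fell 1.7-fold. Ftl1, the ferritin light chain, was not called, and neither were the other 6. The Acacetin libraries overlapped the OGD libraries for Slc11a1, Lcn2 and Fth1, and no gene of the 10 was called between Acacetin and OGD. The test throughout was edgeR's quasi-likelihood test, and called means a p under 0.05 after Benjamini-Hochberg adjustment over all 13249 genes.

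The 3 of 10 called between OGD and Control compare with 28.8% of all tested genes. By direction, 1 was higher and 2 were lower, against 16.2% and 12.6% of all tested genes. Over all genes, the test called 2148 higher and 1665 lower, edgeR with the size factors of DESeq2 called 2048 higher and 1897 lower, and limma on log2 (FPKM + 1) called 911 higher and 1920 lower. The CPM of the OGD and Control libraries did not overlap for 5 of the 10 genes (Fth1, Slc40a1, Slc11a1, Slc11a2 and Lcn2), against 36.0% of all genes. At an unadjusted p under 0.05 in edgeR there were 5 of the 10, against 39.3% of all genes. The median log2 fold change of the 10 genes was -0.15, and that of all genes 0.03. The share called is close to that of all genes, so the results below are those of single genes.

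**Figure D1:**
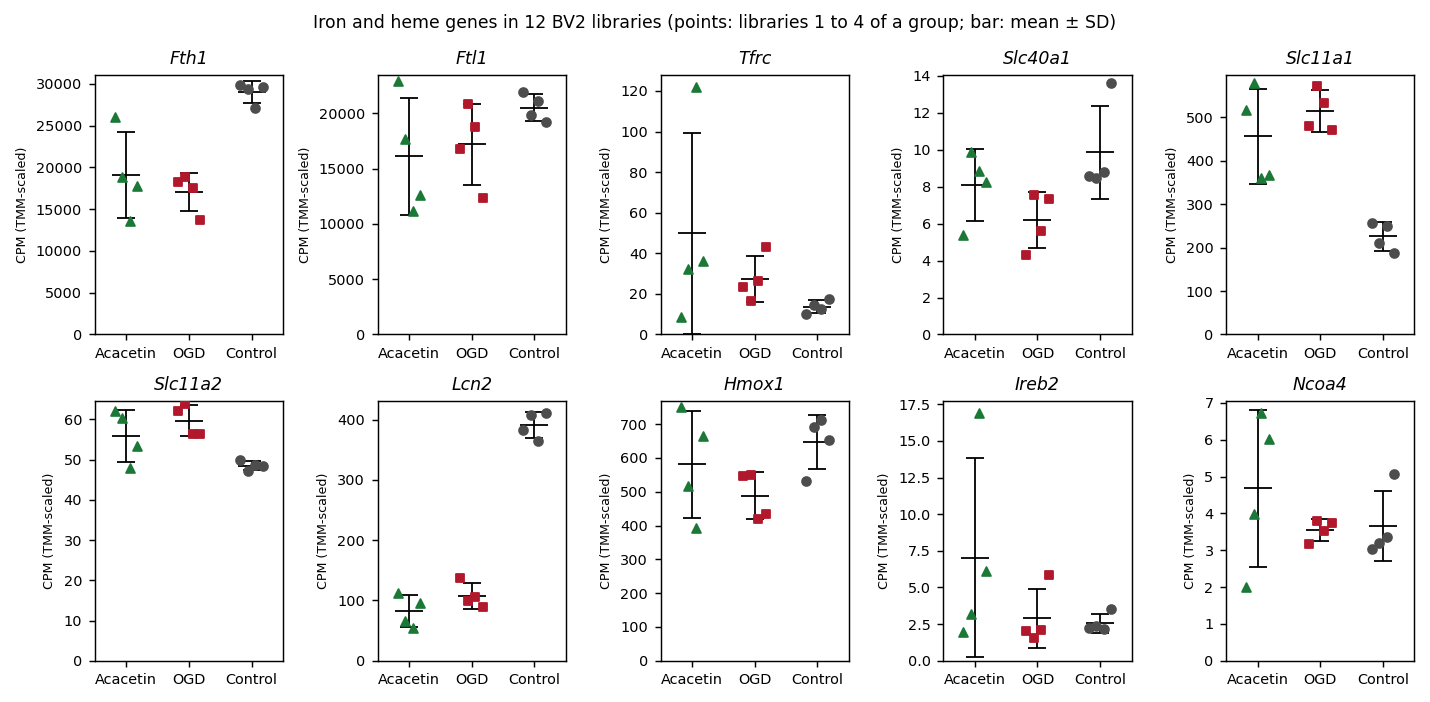
Levels of the 10 genes in each library, in CPM (reads per TMM-scaled library size), for Acacetin, OGD and Control from left to right; points are libraries 1 to 4 and bars the mean ± SD. Lcn2 in Acacetin and OGD lies between 53.8 and 137 CPM, and in Control between 364 and 411, while the highest Tfrc and Ireb2 points belong to Acacetin 3.

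The ferritin subunits had the highest CPM of these genes in every library, and of them Fth1 was called and Ftl1 was not. Fth1, which encodes the heavy chain that oxidises iron for storage, had 25986, 18812, 13616 and 17706 CPM in the Acacetin libraries. It had 18190, 18822, 17530 and 13688 CPM in the OGD libraries and 29878, 29405, 27106 and 29592 CPM in the Control libraries. Every Acacetin and OGD library lay below every Control library, with Acacetin 1 the closest to them. In OGD against Control Fth1 fell by 0.77 on the log2 scale, with a standard error (SE) of 0.23 and an adjusted p in edgeR of 0.0226. That call was lost without Control 1 (adjusted p = 0.0554), without Control 2 (0.0551) or without OGD 4 (0.0532). In Acacetin against Control the log2 fold change of Fth1 was -0.61 ± 0.23 (SE), with an edgeR adjusted p of 0.0633. It was called under 9 alternatives, among them DESeq2 (adjusted p = 0.0027) and the fit without Acacetin 1 (-0.79, adjusted p = 0.00541).

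Ftl1, the light chain that helps the iron core form, had 22906, 17698, 11206 and 12606 CPM in Acacetin, against 16740, 20889, 18803 and 12356 CPM in OGD and 21909, 19834, 21097 and 19228 CPM in Control. The Control libraries stayed within a narrow band, and both other groups overlapped it. The log2 fold change in OGD against Control was -0.25, with a 95% interval from -0.80 to 0.29 and an edgeR adjusted p of 0.502. The interval includes the value found for Fth1, so unequal change is read from the ratio within each library. The FPKM ratio of Fth1 over Ftl1 was 0.438, 0.411, 0.469 and 0.543 in Acacetin, 0.42, 0.348, 0.36 and 0.428 in OGD, and 0.527, 0.573, 0.496 and 0.594 in Control. All OGD libraries were below all Control libraries, and only Acacetin 4 reached into the Control range. No test was run on the ratios.

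Fth1 and Ftl1 together took from 3.28% to 4.16% of all reads in Acacetin, from 2.83% to 3.48% in OGD and from 4.66% to 5.13% in Control. These shares are of all counted reads, ribosomal ones included. In OGD 2 and 3, where 18S ribosomal RNA took 13.1% and 21.3% of reads, Fth1 ranked 3 among all genes, and in the other 10 libraries it ranked 1. Ferritin has processed pseudogenes that can share reads with it. The 9 rows for ferritin pseudogenes and paralogs held 16472 reads over the 12 libraries, or 0.132% of the ferritin reads, so reads assigned to them are few. Fth1-ps was called lower in OGD against Control (edgeR adjusted p = 0.00544) on 195 reads in all, and how its reads are split from Fth1 is uncertain.

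The level of the transferrin receptor differed widely among the Acacetin libraries. Tfrc, which encodes the receptor, had 8.69, 32.5, 122 and 36.1 CPM in Acacetin, against 23.6, 16.7, 26.2 and 43.0 CPM in OGD and 10.2, 14.5, 12.7 and 17.6 CPM in Control. Acacetin 2, 3 and 4 were above every Control library, but Acacetin 1 was below every one of them, and OGD 2 fell among the Control values. The log2 fold change in OGD against Control was 1.00, with a 95% interval from -0.18 to 2.18 and an edgeR adjusted p of 0.197. With only the 8 libraries of that comparison in the fit it had the same size and an adjusted p of 0.00473. In Acacetin against Control Tfrc rose by 1.86 ± 0.56 (SE) on the log2 scale, with an edgeR adjusted p of 0.0245, although the groups overlapped. Without Acacetin 3 the value was 0.92 (adjusted p = 0.104), and the call was also lost without Control 1, 2 or 3 (0.0726, 0.0594 and 0.0607) and by limma on log2 (FPKM + 1) (1.20, adjusted p = 0.141).

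Slc11a1 and Slc11a2 encode the related divalent metal transporters NRAMP1, found in phagosomes of macrophages, and DMT1, which releases iron from endosomes after transferrin uptake. Slc11a1 had 517, 579, 361 and 367 CPM in Acacetin, against 481, 573, 533 and 471 CPM in OGD and 257, 211, 249 and 187 CPM in Control. Every Acacetin and OGD library was above every Control library, and the Acacetin libraries spread to both sides of the OGD values. Slc11a1 rose by 1.19 ± 0.18 (SE) in OGD against Control (edgeR adjusted p = 0.00038). It rose by 1.01 ± 0.18 in Acacetin against Control (edgeR adjusted p = 0.00129). Both values are log2 fold changes, and both calls held in all 21 alternatives run for each comparison.

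Slc11a2 was not called in any comparison. It had 62.1, 60.3, 48.0 and 53.5 CPM in Acacetin, against 62.2, 63.8, 56.5 and 56.3 CPM in OGD and 49.9, 47.2, 48.6 and 48.4 CPM in Control. All OGD libraries were above all Control libraries, and Acacetin 3 fell within the Control range. The log2 fold change in OGD against Control was 0.30, with a 95% interval from 0.06 to 0.54, and missed the threshold in edgeR (adjusted p = 0.0598). It passed under 5 alternatives, among them DESeq2 (adjusted p = 0.0301). The FPKM ratio of Slc11a2 over Slc11a1 ran from 0.0607 to 0.0848 in Acacetin, from 0.0618 to 0.0754 in OGD and from 0.113 to 0.151 in Control. The Control libraries stood apart from the other 8 in that ratio.

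Lcn2 showed the largest change of the 10 genes in both comparisons with Control. It encodes lipocalin 2, which keeps iron from bacteria by capturing their siderophores and is secreted by activated glia. Lcn2 had 113, 66.2, 53.8 and 96.1 CPM in Acacetin, against 137, 98.4, 105 and 88.4 CPM in OGD and 382, 407, 364 and 411 CPM in Control. The lowest Control library was well above the highest library of either other group, and the Acacetin and OGD libraries overlapped. In OGD against Control Lcn2 fell by 1.87 on the log2 scale (SE 0.21, edgeR adjusted p = 0.000102). In Acacetin against Control it fell by 2.25 (SE 0.22, edgeR adjusted p = 7.27e-05). Both calls held in all 21 alternatives, with log2 fold changes from -2.04 to -1.78 for OGD and from -2.44 to -2.09 for Acacetin.

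**Figure D2:**
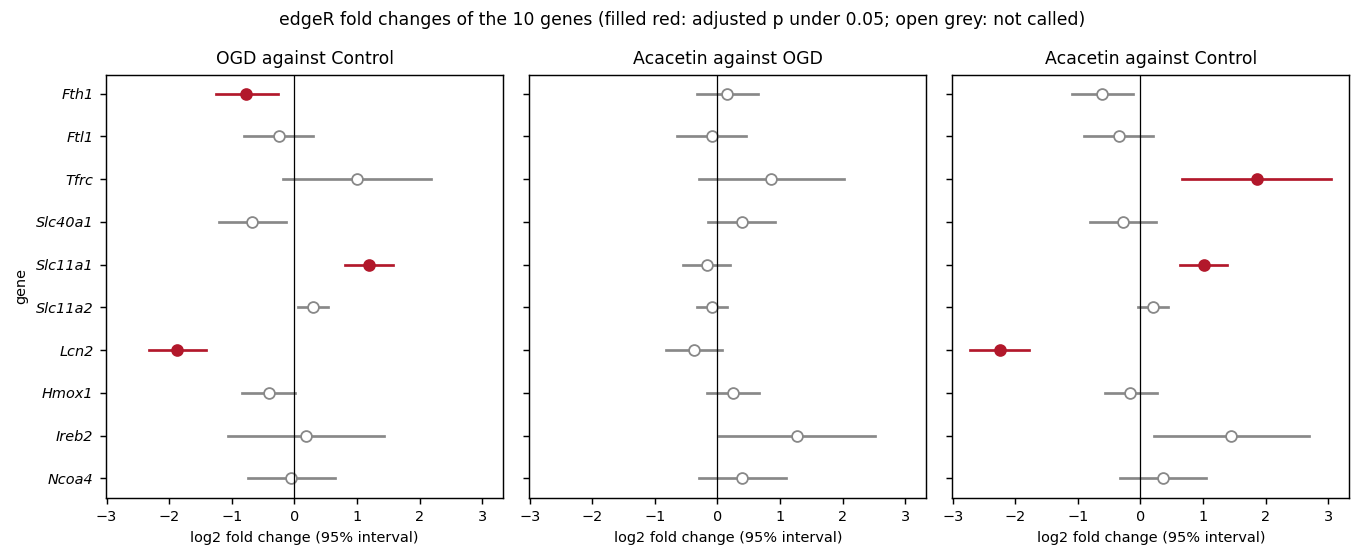
Log2 fold changes of the 10 genes with 95% intervals in OGD against Control, Acacetin against OGD and Acacetin against Control, from left to right; filled red marks an edgeR adjusted p under 0.05. Lcn2 at -1.87 and Slc11a1 at 1.19 in OGD against Control lie farthest from 0 among the called genes there, and no gene is filled in the middle panel.

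Slc40a1 encodes ferroportin, the iron exporter. It had 5.37, 9.90, 8.82 and 8.27 CPM in Acacetin, against 4.29, 7.54, 5.62 and 7.34 CPM in OGD and 8.55, 8.46, 8.81 and 13.6 CPM in Control. All OGD libraries were below all Control libraries, and the Acacetin libraries spanned both. The log2 fold change in OGD against Control was -0.67, with a 95% interval from -1.20 to -0.13 and an edgeR adjusted p of 0.0594. It passed the threshold under 6 alternatives, among them DESeq2 (adjusted p = 0.0308) and a fit with the trend with gene length removed (0.0257). The reads behind it ranged from 72 to 409 a library, so counting error is larger here than for ferritin.

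Hmox1, the inducible heme oxygenase that opens the heme ring and frees its iron, had 751, 516, 393 and 664 CPM in Acacetin, against 546, 550, 420 and 435 CPM in OGD and 533, 691, 711 and 653 CPM in Control. The 3 groups overlapped, with Control 1 lying among the OGD values. The log2 fold change in OGD against Control was -0.41 (95% interval -0.83 to 0.01, edgeR adjusted p = 0.137). With only the 8 libraries of that comparison it was -0.40 and passed the threshold (adjusted p = 0.0335). In Acacetin against OGD it was 0.25 (95% interval -0.16 to 0.67, adjusted p = 0.842).

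Ireb2 and Ncoa4 were the least expressed of the 10 genes, with 27 to 614 reads a library for Ireb2 and 42 to 245 for Ncoa4. Ireb2 encodes iron regulatory protein 2, which binds the hairpins printed above. It had 1.95, 3.20, 16.9 and 6.11 CPM in Acacetin, against 2.02, 1.55, 2.11 and 5.88 CPM in OGD and 2.21, 2.36, 2.18 and 3.52 CPM in Control. The groups overlapped, with Acacetin 3, OGD 4 and Control 4 each the highest of their group. Its log2 fold change was 0.18 in OGD against Control (95% interval -1.06 to 1.43, edgeR adjusted p = 0.852), and -0.44 without OGD 4. In Acacetin against Control it was 1.45 (95% interval 0.21 to 2.70, adjusted p = 0.077), called by DESeq2 (0.033) and without Acacetin 1 (1.76, 0.0122).

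Ncoa4 encodes the receptor that hands ferritin to autophagosomes when iron is needed. It had 1.99, 3.99, 6.73 and 6.01 CPM in Acacetin, against 3.16, 3.80, 3.51 and 3.74 CPM in OGD and 3.03, 3.19, 3.37 and 5.08 CPM in Control. The OGD libraries lay inside the Control range, and the Acacetin libraries reached beyond it on both sides. The log2 fold change was -0.05 in OGD against Control (95% interval -0.74 to 0.65, edgeR adjusted p = 0.932) and 0.36 in Acacetin against Control (95% interval -0.33 to 1.04, adjusted p = 0.425).

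Compared per length, the order of levels was headed by ferritin in every group. Mean FPKM of Ftl1 was 10914 in Acacetin, 9704 in OGD and 13013 in Control, followed by Fth1 at 5024, 3790 and 7121 and by Hmox1 at 306, 219 and 315 in the same order of groups. The FPKM ranges of these 3 genes did not overlap within any group. The next place was taken by Slc11a1 in Acacetin (114 FPKM) and OGD (108 FPKM), above Lcn2 at 28.8 and 32.1 FPKM, and by Lcn2 in Control (127 FPKM), above Slc11a1 at 51.6 FPKM. These 2 genes thus changed places, and their ranges did not overlap within any group. Tfrc and Slc11a2 came next, with overlapping ranges in Acacetin and OGD, and the means of Slc40a1, Ireb2 and Ncoa4 were all under 1 FPKM. Tfrc overlapped Slc40a1 in Acacetin and in Control, and also Ireb2 in Acacetin. Neighbours among the last 3 genes overlapped in each group except Slc40a1 and Ncoa4 in Control. The length behind the FPKM of Fth1 is 4006 bases, while the GENCODE transcript holding its hairpin has 929, so its level per length of that transcript is higher than its FPKM shows. For Ftl1 the lengths are 1548 and 968 bases. The place of Ftl1 above Fth1 thus rests on the lengths used. Reads of Fth1 and Ftl1 summed to 2236816 and 1888168 in Acacetin, 1598618 and 1569395 in OGD, and 3014208 and 2124886 in Control. In OGD 2 and 3 Fth1 had fewer reads than Ftl1.

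A pair of ratios set uptake against storage and export within a library. Per 1000 FPKM of Fth1, Tfrc had 0.187, 0.97, 5.01 and 1.14 FPKM in Acacetin, against 0.726, 0.498, 0.838 and 1.76 in OGD and 0.191, 0.276, 0.261 and 0.334 in Control. All OGD libraries were above all Control libraries, and 3 Acacetin libraries were too, while Acacetin 1 was below them all. The FPKM ratio of Slc40a1 over Tfrc was 0.423, 0.209, 0.0498 and 0.157 in Acacetin, against 0.126, 0.309, 0.146 and 0.117 in OGD and 0.579, 0.4, 0.48 and 0.53 in Control. The OGD values were all below the Control values, and Acacetin 1 lay inside the Control range. A ratio shows unequal change only, and not which gene moved.

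**Figure D3:**
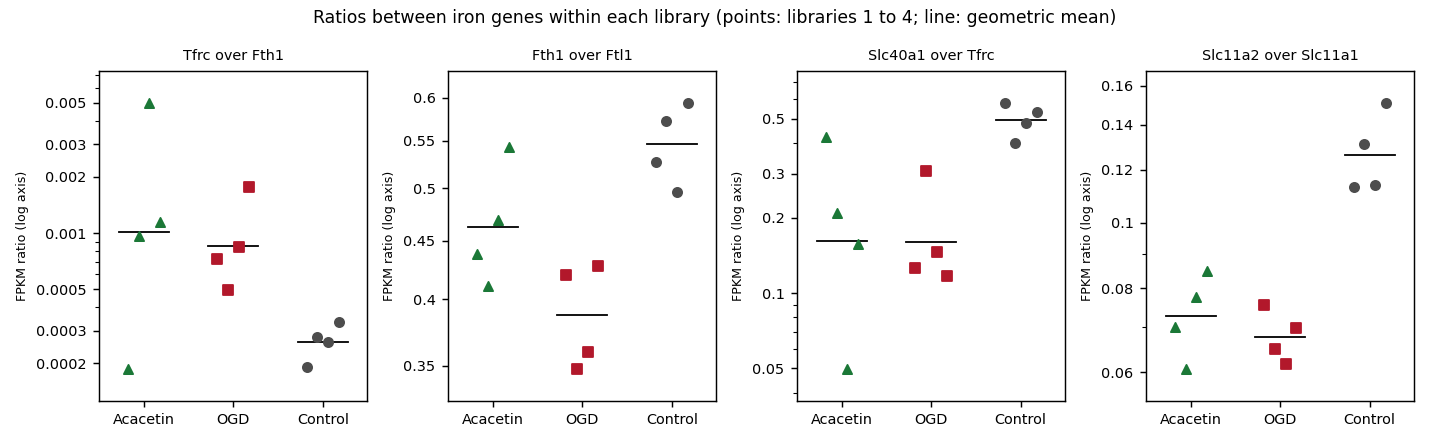
FPKM ratios between pairs of these genes in each library on log axes, for Acacetin, OGD and Control from left to right; points are libraries 1 to 4 and lines geometric means. In all 4 panels the OGD and Control points do not overlap, and the Acacetin points spread most for Tfrc over Fth1, from 0.187 to 5.01 per 1000. Each pair holds a gene whose own CPM did not overlap between OGD and Control, as for 36.0% of all tested genes. How often ratios of other gene pairs separate was not counted.

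In Acacetin against OGD, edgeR called 0 of the 10 genes, and 0 of all 13249 genes (0.00%). At an unadjusted p under 0.05 in edgeR there was 1 of the 10, Ireb2, against 685 genes or 5.17% of all. DESeq2 called 0 of the 10 and 30 genes in all. The groups overlapped for all 10 genes, and did not overlap for 2.35% of all tested genes. The log2 fold changes ran from -0.38 for Lcn2 (95% interval -0.83 to 0.07) to 1.27 for Ireb2 (0.03 to 2.51), and their median was 0.21, against -0.02 for all genes. For Fth1 the value was 0.16 (-0.33 to 0.65), for Slc11a1 -0.17 (-0.55 to 0.20) and for Slc40a1 0.39 (-0.15 to 0.92). The value for Tfrc was 0.86 (-0.30 to 2.02) and became -0.08 without Acacetin 3. A missed threshold does not show that the groups were alike, and the intervals of Tfrc, Ireb2 and Ncoa4 are wide.

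In Acacetin against Control, 3 of the 10 genes were called, with Tfrc and Slc11a1 higher and Lcn2 lower, against 26.9% of all genes (14.0% higher and 12.9% lower). This comparison shares the Control libraries with OGD against Control and the Acacetin libraries with Acacetin against OGD, which in turn shares the OGD libraries with OGD against Control. The groups did not overlap for 3 of the 10 (Fth1, Slc11a1 and Lcn2), against 25.7% of all genes. At an unadjusted p under 0.05 in edgeR there were again 5, against 40.1% of all genes. Without Acacetin 1 the count of called genes became 5, with Fth1 and Ireb2 added, and without any 1 library it ranged from 2 to 5. The median log2 fold change of the 10 genes was 0.02, and that of all genes 0.08.

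The libraries differ in a trend of expression with gene length, given here as a slope for each library (log2 level over log2 length of the gene). The slope was -0.213, 0.029, 0.295 and 0.125 in Acacetin 1 to 4, against -0.039, -0.150, -0.085 and 0.172 in OGD and -0.061, -0.049, -0.091 and 0.067 in Control. The highest slope was in Acacetin 3, which had the highest Tfrc, Ireb2 and Ncoa4 levels and the lowest Lcn2, Ftl1 and Fth1 levels. The lowest slope was in Acacetin 1, which had the lowest Tfrc and Ncoa4 levels and the highest Ftl1 level. The FPKM ratio of Tfrc over Fth1 was likewise highest in Acacetin 3 (5.01 per 1000) and lowest in Acacetin 1 (0.187). A ratio of genes of unlike length is not freed of the trend, and its part in the ratios was not tested. The lengths behind FPKM run from 1.55 kb for Ftl1 to 11.01 kb for Ireb2. With the length trend removed, Tfrc stayed called in Acacetin against Control (1.71, edgeR adjusted p = 0.0203), and Lcn2, Slc11a1 and Fth1 stayed called in OGD against Control. The lengths used for this removal were those behind FPKM. For Fth1 that length is 4006 bases, against 929 for the GENCODE transcript holding its hairpin. The transcript of Tfrc holding its hairpins is also shorter than the length behind its FPKM. Whether these calls stay with a trend in transcript length removed was not tested. Apart from the removal above, the part of the length trend in these levels was not tested.

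**Figure D4:**
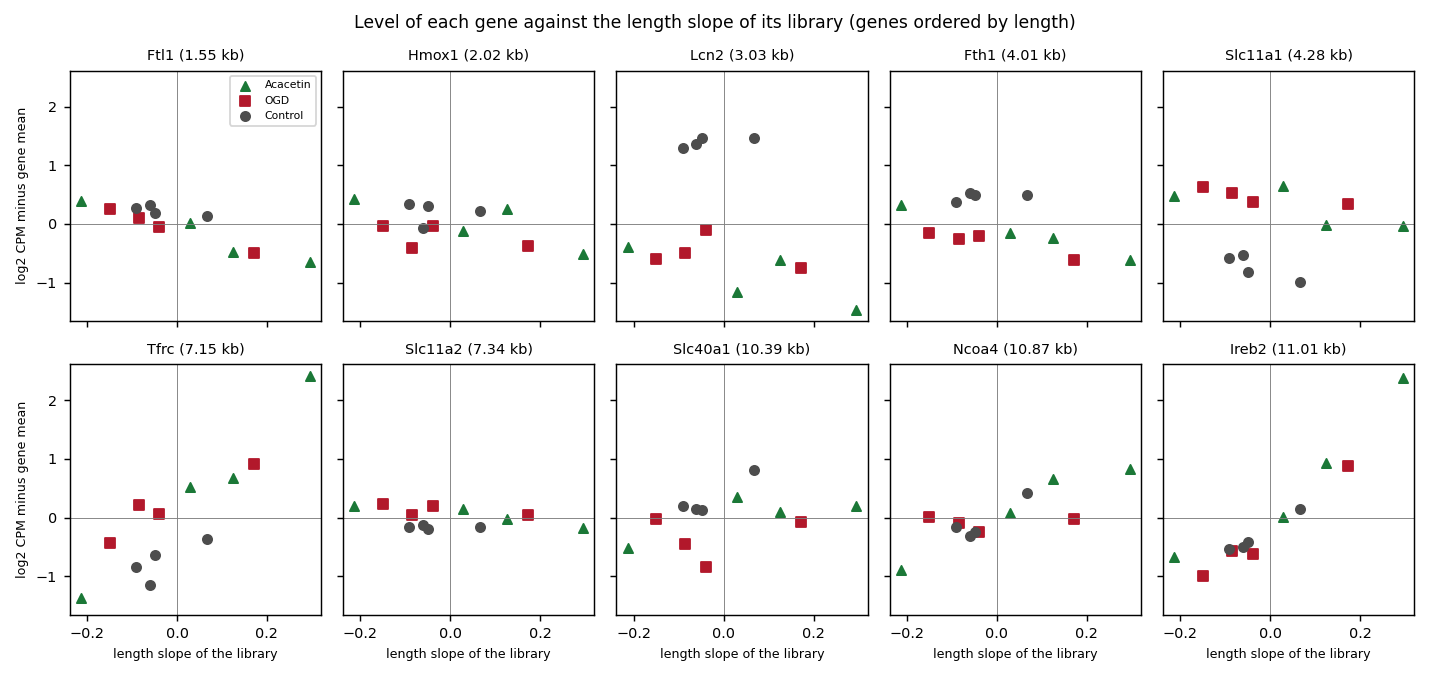
Log2 CPM of each gene minus its mean over the 12 libraries (vertical axis) against the length slope of the library (horizontal axis), with genes ordered by the length behind FPKM from 1.55 to 11.01 kb; triangles are Acacetin, squares OGD and circles Control. Acacetin 3 at a slope of 0.295 holds the highest Tfrc, Ncoa4 and Ireb2 points, and Control stands apart from the other groups for Lcn2 and Slc11a1 at every slope.

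The genes whose pattern over the 12 libraries was nearest to the 3 genes called in OGD against Control were found by the root mean square difference of centred log2 CPM, among 9446 tested genes that averaged 2 CPM or more. For Fth1 they were Coq9 (difference 0.06) and Bcs1l (0.08), where Fth1 itself spread 0.40 around its mean. For Slc11a1 they were Paqr7 (0.06) and Pdf (0.08), where Slc11a1 spread 0.56. For Lcn2 they were Rasa4 (0.16) and Pi16 (0.21), where Lcn2 spread 1.04. These distances describe 12 libraries that share group, depth and length trend.

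Beyond the 10 genes, 69 other genes of iron and heme handling were listed by role, and 62 were in the table and 54 were tested. In OGD against Control 9 were called higher, 4 lower and 41 were not called, a share of 24.1% against 28.8% of all genes. The median log2 fold change was -0.07. The split of directions was 9 higher and 8 lower in edgeR with the size factors of DESeq2, 9 higher and 9 lower by DESeq2, and 9 higher and 10 lower with the length trend removed. In Acacetin against OGD 0 of 54 were called, and in Acacetin against Control 6 were higher and 7 lower (24.1%), against 26.9% of all genes. That split was 8 higher and 3 lower by limma on log2 (FPKM + 1), and 7 higher and 16 lower without Acacetin 1.

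Among other genes of uptake, 2 of 7 were called (28.6%, against 28.8% of all tested genes), both higher with OGD. Slc39a14, the plasma membrane importer ZIP14 that carries iron not bound to transferrin, averaged 46.3 ± 6.54 CPM in Acacetin, 54.5 ± 6.76 CPM in OGD and 23 ± 2.28 CPM in Control (SD, n = 4 each). It rose by 1.25 ± 0.14 (SE) in OGD against Control (edgeR adjusted p = 8.34e-05) and kept its call in all 21 alternatives. Steap3, the endosomal ferrireductase that works ahead of DMT1, rose by 0.42 ± 0.15 (adjusted p = 0.0441), a call lost in 14 of 21 alternatives. Tfr2, named after its values were seen, had a log2 fold change of -1.30 in OGD against Control (edgeR adjusted p = 0.062). It was called lower in Acacetin against Control (-2.05, adjusted p = 0.00952). Its level was low, with a mean of 0.669 CPM in Control.

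In storage and delivery, 1 of 3 genes was called (33.3%, against 28.8% of all tested genes). It was Pcbp1, the chaperone that delivers iron to ferritin, higher by 0.38 ± 0.13 (SE) in OGD against Control (edgeR adjusted p = 0.0398). That call was lost in 10 of 21 alternatives. Both tested genes of iron sensing were uncalled, and of the 4 other export genes 2 were in the table and 0 were tested.

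Heme synthesis had 2 genes called higher and 1 lower of 10 in OGD against Control. Over all tested genes, 28.8% were called, 16.2% higher and 12.6% lower. The share called in this list was thus close to that of all genes, and the results below are those of single genes. Uros, uroporphyrinogen synthase, averaged 10.1 ± 2.29 CPM in Acacetin, 9.66 ± 1.15 CPM in OGD and 4.42 ± 0.663 CPM in Control (SD, n = 4 each), a rise of 1.13 ± 0.20 (SE) in OGD against Control (edgeR adjusted p = 0.00114). Slc25a38, the mitochondrial glycine carrier, rose by 0.69 ± 0.18 (adjusted p = 0.0125). Ppox, the oxidase ahead of the last step, fell by 0.74 in OGD (SE 0.16, adjusted p = 0.00374). Alas1, the rate-limiting enzyme outside red cells, named after its values were seen, fell by 0.47 in Acacetin against Control (adjusted p = 0.0261), a call lost in 10 of 21 alternatives.

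In heme breakdown and transport 1 of 8 genes was called (12.5%, against 28.8% of all tested genes). Flvcr1, a transporter first described as a heme exporter, fell by 0.96 in OGD against Control (SE 0.23, edgeR adjusted p = 0.00723). It averaged 9.7 ± 2.63 CPM in Acacetin, 8.86 ± 0.513 CPM in OGD and 17.3 ± 5.58 CPM in Control (SD, n = 4 each). Without OGD 2 and 3 the call was lost (-0.99, adjusted p = 0.081).

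Of 15 mitochondrial genes of iron and iron-sulfur clusters, 1 was called higher, 2 lower and 12 were not called. Of 9 genes of cytosolic assembly 3 were called higher, 0 lower and 6 were not called. Over all tested genes, 16.2% were called higher and 12.6% lower. Iba57, a late-acting mitochondrial factor, rose by 1.30 ± 0.26 (SE) in OGD against Control (edgeR adjusted p = 0.00225). Fdxr, which supplies electrons for cluster building, fell by 0.80 (SE 0.20, adjusted p = 0.00896), and Hscb, a cochaperone, fell by 0.74 (SE 0.17, adjusted p = 0.00516). Ndor1, an electron donor of cytosolic assembly, rose by 1.70 ± 0.22 (adjusted p = 0.00019), with 12.4 ± 1.98 CPM in Acacetin, 11.4 ± 1.34 CPM in OGD and 3.51 ± 0.959 CPM in Control (SD, n = 4 each). Nubp2 (0.92 ± 0.22, adjusted p = 0.00655) and Ciao2a (0.82 ± 0.17, adjusted p = 0.00245), both also of cytosolic assembly, rose as well. Without OGD 2 and 3 the calls of Nubp2 (0.68, adjusted p = 0.0807) and Slc25a38 (0.57, 0.0908) were lost.

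**Figure D5:**
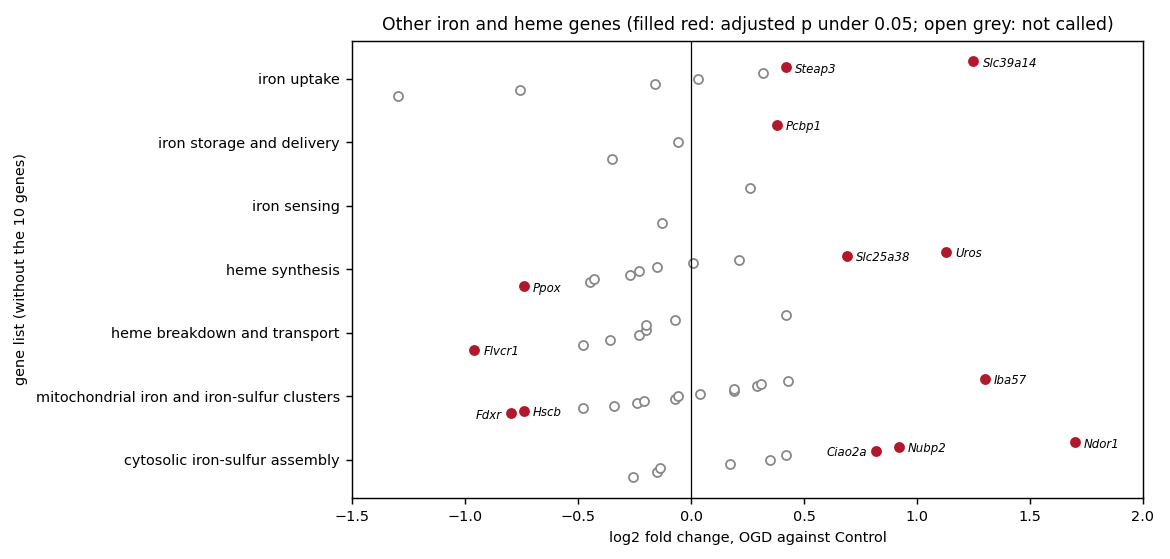
Log2 fold change in OGD against Control of the 54 other tested iron and heme genes, each a point, grouped by list from top to bottom; filled red points are called in edgeR at an adjusted p under 0.05 and named. The 9 called genes to the right run up to Ndor1 at 1.70, and the 4 to the left down to Flvcr1 at -0.96.

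The labelled cell type was checked against 13 markers of microglia and macrophages, of which 12 were tested. Their summed level ran from 2914 to 4561 CPM in Acacetin, from 3486 to 4920 CPM in OGD and from 3946 to 4723 CPM in Control, led by Lyz2, Cd68 and Tyrobp. P2ry12, a marker of resting microglia, was near 0 with 13 reads in all. Cx3cr1, Tmem119, Ptprc and Aif1 were low too, averaging 3.07, 5.16, 6.86 and 12.2 CPM over the 12 libraries. In OGD against Control Csf1r was called higher (log2 fold change 1.12, edgeR adjusted p = 0.00017) and Cx3cr1 lower (-1.07, 0.00481). The other tested markers of this list were not called. Of 8 erythroid markers, which matter for heme genes, 5 were in the table. Alas2 and Epor had 5 reads each, Hba-a1 594, Hba-a2 262 and Klf1 280. In OGD against Control Hba-a1 was called lower (log2 fold change -0.95, edgeR adjusted p = 0.0434). Hba-a2 (-0.93) and Klf1 (0.52) were not called. The sum of the 5 ran from 2.12 to 4.04 CPM in Acacetin, from 2.5 to 3.95 CPM in OGD and from 4.21 to 5.4 CPM in Control. The erythroid sum did not overlap between Control and the other groups, and its part in the results on heme genes was not tested. Markers of astrocytes, of neurons and of liver cells each summed to at most 6.26 CPM in any library, and those of oligodendrocytes to 55.1 to 111 CPM, nearly all of it Cnp. Library depth was 16427886 to 32693066 reads. In these bulk samples, fewer cells of a kind and less RNA per cell cannot be told apart.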

How the data were processed

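Per the labels, total RNA was made into stranded mRNA libraries and sequenced as pairs. Bcl2fastq, HISAT2, DESeq2 and build GRCm39 are named in the submitters' processing notes, without versions or roles. The counter and strand setting are not given in the sources used here. Per gene, the authors deposited read counts and FPKM, which scale fragments by depth and gene length. The deposited FPKM imply 1 length per gene (relative SD at most 0.0287% over 2453 genes with FPKM of at least 10). Deposited tables give chromosomes without positions.

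All 12 libraries entered 1 edgeR 4.0.16 quasi-likelihood fit in R 4.3.3, with TMM scaling and filterByExpr (minimum count 10, minimum total 15). Tests were two-sided, with 3 contrasts and Benjamini-Hochberg adjustment over 13249 genes. CPM use TMM-scaled library sizes. FPKM ratios, levels and pattern distances carry no test. Depth limits only counting error, since PCR copies of a molecule cannot be told apart. Replicate pairs of a group differed beyond sampling noise (chi-square per gene at least 23.3), so all were kept.

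The alternatives were DESeq2 1.42.0, its size factors, counts left unfiltered, genes averaging at least 1 CPM, only the 8 libraries compared, the replicate block, limma 3.58.1 on log2 FPKM with 1 or 0.1 added, a length trend removed by lowess (span 0.5), rRNA genes with Lars2 left out, a fold limit (log2 change of 1 or more either way), and libraries left out. Leaving out OGD 4 with Acacetin 3 was chosen after the data were seen. The 10 genes and the pathway lists were chosen with earlier results of these data known. Named pathway genes are the up to 3 per list with the smallest p among those called in OGD against Control, and the nearest genes are the 2 per called gene with no model or clone name. The fit was tested on simulated data.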

Additional observations from a re-analysis of the deposited data

Results flagged for a closer look

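Among 42 sets of 4 values checked (the 10 genes and 4 ratios in each group), 6 held a library far from the other 3, by Dixon's test at its 95% value. Chance alone marks about 5% of such sets. Control 4 stood above the other Control libraries for 3 genes. Slc40a1 was at 13.6 CPM there, with the nearest at 8.81, Ireb2 at 3.52 CPM, with the nearest at 2.36, and Ncoa4 at 5.08 CPM, with the nearest at 3.37. Control 4 also had the highest length slope of the Control libraries, 0.067, and these 3 genes have the greatest lengths behind FPKM, from 10.39 to 11.01 kb. Whether length has a part in these values was not tested. Ireb2 in OGD 4 was at 5.88 CPM, with the nearest OGD library at 2.11, and the length slope of OGD 4 was 0.172. Fth1 in Control 3 was at 27106 CPM, below the nearest Control library at 29405. The ratio of Slc40a1 over Tfrc in OGD 2 was 309 per 1000, with the nearest OGD library at 146.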

How the results depend on the processing

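Over the alternatives, the 30 log2 fold changes of the 10 genes gave 640 values, of which 589 kept direction and side of the threshold, 24 passed it newly, 11 no longer passed it and 16 changed sign. The 26 called values of other pathway genes gave 545, of which 479 kept both, 66 lost the call and 0 changed sign. The 3 called of the 10 in OGD against Control became 5 by DESeq2, 7 with only the 8 libraries compared and 5 with the replicate block, and 2 to 4 with 1 library left out. The 3813 called of all genes (28.8%) also became more under those 3 settings, 4284 (17.2%), 4882 (38.0%) and 4572 (34.5%). The DESeq2 share is over genes without the filter on low counts, so it is not on the base of the others. The 3813 became 1532 with the fold limit, 2010 without OGD 2 and 3 and 2798 to 3501 with 1 library left out. The 13 pathway genes became 22 with only the 8 libraries and 4 with the fold limit. In Acacetin against OGD the 0 called genes became 30 by DESeq2, 8 without a filter, 1 with only the 8 libraries, 2 with the replicate block, 4 with the length trend removed, 4 without Acacetin 1 and 3, and 0 to 9 with 1 library left out. In Acacetin against Control the 3 of the 10 became 5 by DESeq2, and 2 to 5 with 1 library left out. DESeq2 called 4305 of all genes (17.3%, again without the filter) against 3559 (26.9%) in the main fit. All genes became 1441 with the fold limit and 2373 to 5818 with 1 library left out, the highest without Acacetin 1, and the 13 pathway genes became 21 with the length trend removed, 5 with the fold limit and 9 to 23 with 1 library left out. The fold limit lowers counts by construction, and the cause of the other changes was not tested.

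Sign changes all concerned uncalled values, and ranges below are over fits with 1 library left out. In OGD against Control, Ireb2 became -0.03 with limma on FPKM (0.1 added), -0.48 without OGD 4 and Acacetin 3 and -0.44 without OGD 4 (range to 0.39), and Ncoa4 0.13 without Control 4 (range from -0.13). In Acacetin against OGD, limma on FPKM moved the median of all genes to 0.16 (1 added) and 0.24 (0.1 added), and gave 0.17 and 0.17 for Ftl1, 0.09 and 0.09 for Slc11a1, and 0.17 and 0.19 for Slc11a2. Ftl1 also became 0.18 without OGD 2 and 3, 0.01 without OGD 2, 0.05 without Acacetin 3 and 0.01 without Acacetin 4 (range from -0.31). Fth1 became -0.03 without Acacetin 1 (range to 0.29), and Tfrc -0.08 without Acacetin 3 (range to 1.21). Libraries of the same number deviated together (correlation over 0.1) in 8 of 12 pairs, from -0.29 to 0.51. Of the 12, 6 correlated best with their own number among 4 candidates. These values do not decide whether equal numbers mark a pairing, and the main fit had no block. With the block, edgeR also called Slc40a1 (adjusted p = 0.018) and Slc11a2 (0.0359) in OGD against Control. Ireb2, Ncoa4 and Slc40a1 rest on the fewest reads of the 10 genes.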
